A study of Mus musculus with 6 samples.

Results

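Platelet-derived growth factors (PDGF) and fibroblast growth factors (FGF) signal through receptor tyrosine kinases. The 10 genes described here are the PDGF ligand genes Pdgfa, Pdgfb and Pdgfc, the PDGF receptor genes Pdgfra and Pdgfrb, the FGF ligand gene Fgf2, the FGF receptor genes Fgfr1, Fgfr2 and Fgfr3, and Spry2, an inhibitor that these receptors induce. They were chosen by name, and every peak overlapping a gene or the 10 kb either side of it was taken as belonging to that gene. The annotation used holds 21887 protein-coding genes. The merged peaks of the 5 usable libraries formed 49048 regions, of which 37 lay at these 10 genes.

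The assay was ATAC-seq, which marks open chromatin by letting a transposase insert sequencing adapters where DNA is reachable. It was run on immortalised AV cushion mesenchymal cells of the mouse, where AV stands for atrioventricular. The cushions are the embryonic tissue from which heart valves and septa form. The cells carry the H- 2Kb-tsA58 transgene, a temperature-sensitive SV40 large T antigen under a major histocompatibility promoter, and were used at passage 6 in both groups. Both groups were grown in DMEM with fetal bovine serum. The normal-glucose group had 5.5 mM glucose and the high-glucose group 25 mM glucose for 48 h, with 3 libraries of 54000 cells in each. The series asks how high glucose relates to the risk of heart defects in the offspring of diabetic mothers. A single cell line stands for the tissue, and the labels do not state whether the replicates were separate cultures.

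Lists of the entering libraries held 22156 to 40350 peaks, the longest being that of normal-glucose replicate 3. Normal-glucose replicate 2 held 66 peaks, fell under the minimum of 1000 and had no peak at any of the 10 genes. That left 2 normal-glucose and 3 high-glucose libraries, for which an exact two-sided rank test cannot go below p = 0.2. Presence calls are therefore given with the share of all regions or genes that meet the same rule, and no test was made of the differences at these genes. The depth in reads is unknown, and a longer list reaches weaker sites. In these bulk libraries fewer cells with an open site and less opening per cell cannot be told apart. Of 11 mesenchyme markers 5 (Vim, Cdh2, Cdh11, Snai2 and Sox9) had a region in all 5 lists within 1 kb of a start, against 36.2% of all genes. None of 6 endothelial and none of 6 cardiomyocyte markers had one, although Kdr, a VEGF receptor of endothelium, had a start peak in 4 lists. Of 4 blood markers 1 had such a region, Spi1, and of 4 epicardial and mesothelial markers 2 did, Wt1 and Upk3b. Cdh2, Cdh11, Snai2, Sox9, Spi1 and Wt1 had no annotated start in the table used. Both of their gene ends were searched, so their regions may lie at either end. Pdgfra and Pdgfrb, themselves on the mesenchyme list, had no start peak in any list.

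As background, PDGF-A and PDGF-C act mainly through the alpha receptor and PDGF-B through both receptors, and these receptors mark and drive the growth and migration of mesenchymal cells. FGF2 binds FGF receptors together with heparan sulphate, and FGF receptors pass the signal through the adaptor FRS2 to the Ras and MAP kinase cascade. Sprouty proteins, among them the product of Spry2, are induced by this cascade and restrain it. In the developing heart, PDGF and FGF signals act on cushion mesenchyme and on cells of the epicardium.

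The open chromatin of the 10 genes fell at some gene starts and missed others, and 4 start sequences are shown to place the peaks. Each is the 250 bases before an annotated start, written 5′ to 3′ on the strand of the gene, from RefSeq on GRCm38.p6, whose chromosomes have the coordinates of mm10, the build of the files. Capitals mark the bases covered by a peak in every one of the 5 lists. Pdgfa (chr5:138994945-138995194, minus strand) and Fgfr3 (chr5:33721474-33721723, plus strand) hold such bases up to the start itself, 115 and 52 of them. Spry2 (chr14:105896820-105897069, minus strand) and Fgfr2 (chr7:130266809-130267058, minus strand) hold none, and their regions lie outside the stretch shown.
Pdgfa: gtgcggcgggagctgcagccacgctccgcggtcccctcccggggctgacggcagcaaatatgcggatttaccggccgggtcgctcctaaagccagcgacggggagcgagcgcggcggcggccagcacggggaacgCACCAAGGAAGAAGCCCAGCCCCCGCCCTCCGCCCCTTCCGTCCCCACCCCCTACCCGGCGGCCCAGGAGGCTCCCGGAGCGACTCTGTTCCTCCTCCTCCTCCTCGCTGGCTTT
Fgfr3: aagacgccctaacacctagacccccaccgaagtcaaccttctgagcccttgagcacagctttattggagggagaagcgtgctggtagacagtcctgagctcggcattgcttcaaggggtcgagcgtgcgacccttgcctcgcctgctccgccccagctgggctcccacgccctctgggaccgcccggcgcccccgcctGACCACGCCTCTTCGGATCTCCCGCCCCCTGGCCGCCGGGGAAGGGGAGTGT
Spry2: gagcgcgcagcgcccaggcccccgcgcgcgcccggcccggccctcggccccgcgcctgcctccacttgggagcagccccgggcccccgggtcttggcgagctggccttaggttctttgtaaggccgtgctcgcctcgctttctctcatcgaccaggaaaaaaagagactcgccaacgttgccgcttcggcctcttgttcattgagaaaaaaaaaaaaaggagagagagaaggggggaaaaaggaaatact
Fgfr2: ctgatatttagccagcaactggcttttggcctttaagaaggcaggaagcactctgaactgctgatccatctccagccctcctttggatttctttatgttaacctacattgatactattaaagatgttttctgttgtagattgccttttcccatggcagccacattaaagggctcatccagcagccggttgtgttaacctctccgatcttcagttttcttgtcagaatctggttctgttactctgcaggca
The Pdgfa, Fgfr3 and Spry2 sequences have 72.4%, 66.8% and 62.4% G or C, with 28, 19 and 23 CpG dinucleotides. The Fgfr2 sequence has 44.0% G or C and 2 CpG.

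Of the 37 regions, 11 had a peak in all 5 lists, against 25.1% of all regions and 28.9% of those within 10 kb of a protein-coding gene. A single list held 12 of the 37, against 39.7% of all regions. Each of the 10 genes had a peak in at least 1 list, as did 72.4% of all protein-coding genes. Of the 10 genes, 8 had at least 1 region in all 5 lists, the exceptions being Pdgfra and Pdgfrb. Over all protein-coding genes that share was 50.0%. It was 57.1% over the 15780 genes whose windows fell within the range of the 10, from 24873 to 197625 bp. The median number of regions in all 5 lists was 1 per gene for the 10 genes and 0 for all genes. The median window was 63413 bp for the 10 genes and 37169 bp for all genes. Neither comparison matches the genes by length. Regions in all 5 lists had a median width of 248 bp at these genes, and the other 26 regions had one of 129.5 bp. At the 10 genes, summits of regions in all 5 lists had a median spread between lists of 44 bp. Over all regions in all 5 lists it was 64 bp, but those regions were also wider, with a median of 319 bp. The map of peaks along the genes shows where each of them stands.

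**Figure D1:**
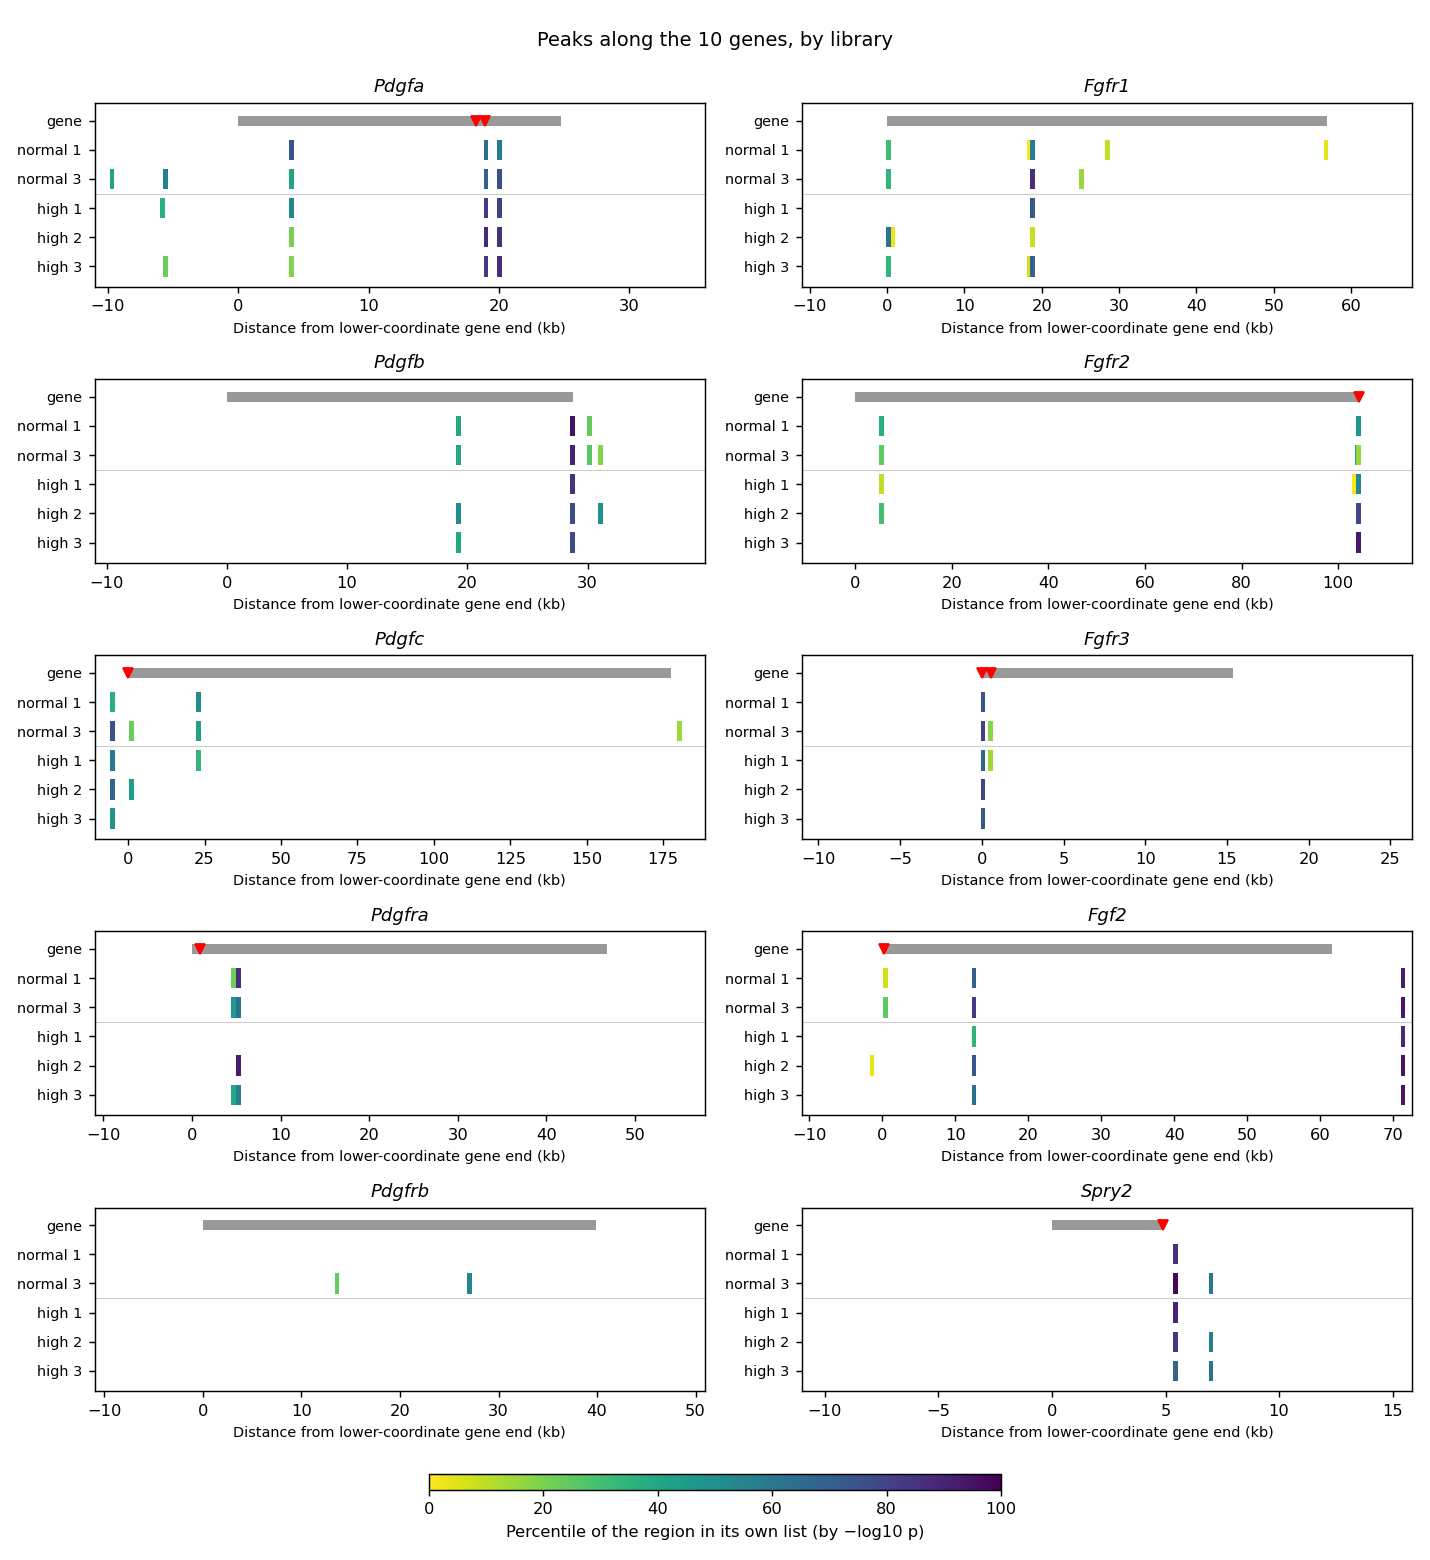
Peaks at each of the 10 genes by library. The horizontal axis is the distance in kb from the lower-coordinate end of the gene, the grey bar is the gene, red triangles are RefSeq starts where the table used gives them, and each coloured mark is a region held by that list, coloured by its percentile (narrow regions are widened to be visible). The 11 regions held by all 5 lists form unbroken columns, and Pdgfrb has marks in normal-glucose replicate 3 alone.

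Pdgfa, which encodes the PDGF-A ligand, held 3 regions in all 5 lists, 2 when the lists were shortened to equal length and 1 where a peak had to cover 50% of the merged region. Its region at chr5:138994838-138995089 covered the start at 138994944 on the minus strand. The rank of a peak is given as its percentile, the share of peaks in the same list whose −log10 p, as the authors deposited it, is at or below that of the peak. For the start region it was 65.4 and 69.2 in normal-glucose replicates 1 and 3, and 82.6, 87.9 and 83.6 in high-glucose replicates 1, 2 and 3. All 3 high-glucose values lay above both normal-glucose values. The authors' fold enrichment was 7.16 and 7.51 in the normal-glucose and 8.73, 10.5 and 9.61 in the high-glucose lists. A second region at chr5:138995854-138996180 lay 910 bp upstream of that start, inside the annotated gene. Its percentiles were 59.3 and 75.9 in normal glucose and 80.6, 85.2 and 87.4 in high glucose, again without overlap. The third, at chr5:138979922-138980169, lay 14112 bp inside the gene from the nearest start. It was strongest in normal-glucose replicate 1, at the 73.3 percentile, followed by high-glucose replicate 1 at 53.2 and normal-glucose replicate 3 at 41.1, and stood at the 21.0 and 18.8 in high-glucose replicates 2 and 3. Its groups overlapped. A further start of Pdgfa at 138994281 had no peak over its window in any list. Beyond the far end of the gene, 3 regions were held by 1 or 2 lists each, at percentiles from 22.9 to 56.4.

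Pdgfb encodes PDGF-B, a ligand best known for recruiting pericytes to vessels. It had a single region in all 5 lists, at chr15:80024383-80024800 over the upper end of the gene at 80024614. Its percentiles were 95.6 and 90.3 in the normal-glucose lists (replicates 1 and 3) and 84.8, 76.6 and 77.3 in the high-glucose lists (replicates 1, 2 and 3). In lists as deposited both normal-glucose values were thus above the 3 high-glucose values, the opposite order to the Pdgfa start. A region inside the gene at chr15:80014922-80015060 was held by every list except that of high-glucose replicate 1. Pdgfb also had a normal-glucose-only region, held by the lists of replicates 1 and 3 and by no high-glucose list, at chr15:80025804-80025921, 1190 bp beyond the upper end of the gene. It ranked low, at the 23.7 percentile in replicate 1 and the 26.2 in replicate 3.

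Pdgfc encodes PDGF-C, a ligand that is activated by cleavage outside the cell. With its flanks it has the longest window of the 10, and it held 4 regions. The only region in all 5 lists, at chr3:81030438-81030625, lay 5791 bp upstream of the start. Its percentiles were 36.5 and 74.6 in normal glucose and 58.5, 67.6 and 47.8 in high glucose, so the normal-glucose values lay on both sides of the high-glucose ones. Close to the start, 203 bp inside the gene, a region was held by normal-glucose replicate 3 and high-glucose replicate 2 only, at the 22.9 and 44.1 percentile.

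Neither PDGF receptor gene had a region in all 5 lists. Pdgfra, the alpha receptor, had 2 regions, both inside the gene on its start side. The stronger, at chr5:75156290-75156439, lay 4039 bp downstream of the start at 75152251. Its percentiles were 87.3 and 61.4 in the normal-glucose lists and 92.7 and 57.6 in high-glucose replicates 2 and 3, and high-glucose replicate 1 had no peak there. With a fold enrichment of 15.1 in high-glucose replicate 2 it was a strong peak in that list. The other Pdgfra region, at chr5:75155730-75155892, was held by both normal-glucose lists and by high-glucose replicate 3, at the 22.5, 45.9 and 39.3 percentile. High-glucose replicate 1, the shortest list, had no peak in the Pdgfra window at all. Pdgfrb, the beta receptor, had 2 regions, at chr18:61058490-61058625 and chr18:61071910-61072040, both inside the gene. Both were in the list of normal-glucose replicate 3 alone, at the 24.0 and 53.4 percentile. Of all protein-coding genes, 5.27% had peaks in a single list only.

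Fgf2, the FGF2 ligand gene, had 2 regions in all 5 lists, neither at its own start. The first lay inside the gene at chr3:37360698-37361144, 12045 bp from the start at 37348653. Its percentiles were 70.2 and 83.1 in normal glucose and 35.1, 73.4 and 62.5 in high glucose. The lowest value was that of high-glucose replicate 1, and the groups overlapped. The second, at chr3:37419490-37420008, was the highest ranked of all 37 regions in the list where each was weakest, at 88.1 or above in every list. It lay in or within 1 kb of the neighbours Nudt6 and Spata5, 9384 bp beyond the annotated end of Fgf2. Over the Fgf2 start itself, at chr3:37348611-37348800, a normal-glucose-only region was found. It stood at the 7.35 percentile in replicate 1 and the 24.8 in replicate 3, with fold enrichments of 4.23 and 5.11.

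Fgfr1, whose product is the main FGF receptor of mesenchyme, had the most regions, 7, and only 1 of them in all 5 lists. That region, at chr8:25537259-25537441, lay inside the gene. Its percentiles were 57.7 and 86.6 in normal glucose and 72.7, 8.28 and 68.6 in high glucose, with high-glucose replicate 2 far below the others. At the lower end of the gene, chr8:25518627-25518751, a region 8 bp outside the gene was held by every list except that of high-glucose replicate 1. Its percentiles were 31.6, 34.7, 61.6 and 34.1 in the 4 lists that had it. Of the other 5 Fgfr1 regions, 4 were in a single list, and none of the 5 exceeded the 15.3 percentile in any list.

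Fgfr2, a receptor with splice forms for epithelium and mesenchyme, had its region in all 5 lists at chr7:130266168-130266378, 430 bp downstream of the start at 130266808. Its percentiles were 46.8 and 15.4 in normal glucose and 53.2, 79.6 and 93.5 in high glucose. The 3 high-glucose values exceeded both normal-glucose values, and they also differed widely among themselves. The fold enrichments were 6.30 and 4.91 in normal glucose and 6.70, 10.5 and 15.2 in high glucose. Fgfr3 encodes a receptor best known from cartilage, and its main region ranked evenly across the lists. Its region at chr5:33721645-33721884 covered the first start, at 33721724, with percentiles of 74.0 and 80.7 in normal glucose and 67.7, 79.2 and 73.0 in high glucose. The groups overlapped. At the second Fgfr3 start, at 33722306, a weak region was held by normal-glucose replicate 3 and high-glucose replicate 1, at the 17.7 and 14.1 percentile.

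Spry2, the feedback inhibitor, is the shortest of the 10 genes and held 2 regions, both upstream of the gene. The region at chr14:105897265-105897495, 446 bp upstream of the start at 105896819, was in all 5 lists. Its percentiles were 85.6 and 98.3 in normal glucose and 90.2, 84.1 and 68.0 in high glucose, so the groups overlapped. In normal-glucose replicate 3 its fold enrichment of 19.3 was the highest of any peak at the 10 genes. A second region, 2033 bp upstream, was held by normal-glucose replicate 3 and high-glucose replicates 2 and 3, at the 60.1, 56.7 and 61.7 percentile.

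Counted by gene, no member had more peaks in every list of one condition than in any list of the other. Over all genes 6.44% had more peaks in each normal-glucose than in any high-glucose list, and 0.270% the reverse. Summed over the 10 genes, the normal-glucose lists held 22 and 30 peaks (26.0 ± 5.66, SD, n = 2) and the high-glucose lists 16, 21 and 18 (18.3 ± 2.52, SD, n = 3). High minus normal glucose was thus -7.67 peaks. With every list cut to its 22149 strongest peaks, the length of the shortest, the counts were 18 and 14 in normal glucose and 16, 18 and 18 in high glucose (16.0 ± 2.83, SD, n = 2, and 17.3 ± 1.15, SD, n = 3), and the difference turned to 1.33. The plot of peak counts by gene shows that normal-glucose replicate 3 alone held peaks at all 10 genes.

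**Figure D2:**
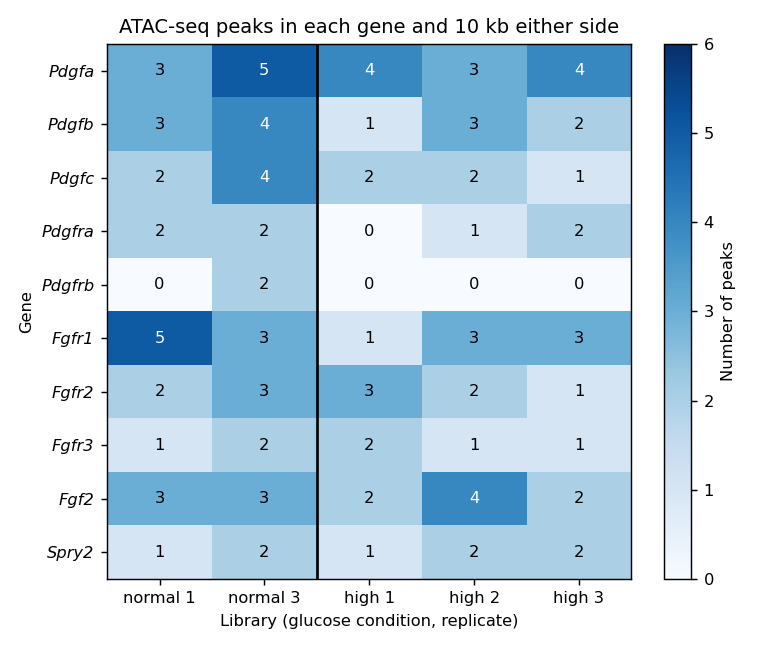
Number of peaks in each gene and 10 kb either side (rows) in each entering library (columns, normal glucose left of the line and high glucose right). Pdgfrb has 2 peaks in normal-glucose replicate 3 and 0 in the other libraries, and Pdgfra has 0 in high-glucose replicate 1.

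Of the 37 regions 2, those of Pdgfb and Fgf2 given above, were held by each normal-glucose list and missing from all high-glucose lists. That rule was met by 3.73% of all regions. None of the 37 was in all 3 high-glucose and no normal-glucose list, against 0.167% of all regions. At a length of 22149 peaks neither normal-glucose region was held by both normal-glucose lists, and the count fell to 0.

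Ranks were set side by side between the conditions in lists of that equal length. Of the 11 regions, 8 remained in all 5 shortened lists. The other 3 were the Pdgfa region inside the gene and the Fgfr2 region, both missing from normal-glucose replicate 3, and the Fgfr1 region, missing from high-glucose replicate 2. Of the 8 that remained, 2 ranked higher in each high-glucose than in any normal-glucose list. That rule was met by 12.1% of the 11319 regions in all 5 shortened lists. None of the 8 ranked higher in each normal-glucose list, against 11.4%. The 2 were the Pdgfa regions at and upstream of the start. The start region had percentiles of 62.2 and 44.0 in normal glucose and 82.6, 86.4 and 83.3 in high glucose, a difference in means of 31.0 points. The upstream region stood at the 55.5 and 56.0 percentile and at the 80.6, 83.2 and 87.1, a difference of 27.9 points. These neighbours belong to 1 gene and were singled out after their values were seen, and at a rate of 12.1% about 1 of 8 regions would meet the rule. The Fgfr2 region dropped out of the shortened list of normal-glucose replicate 3, with 41.8 in normal-glucose replicate 1 and 53.2, 76.9 and 93.4 in high glucose. At Pdgfb the order seen in the full lists was lost, with 95.1 and 82.4 in normal glucose and 84.8, 73.6 and 76.8 in high glucose.

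**Figure D3:**
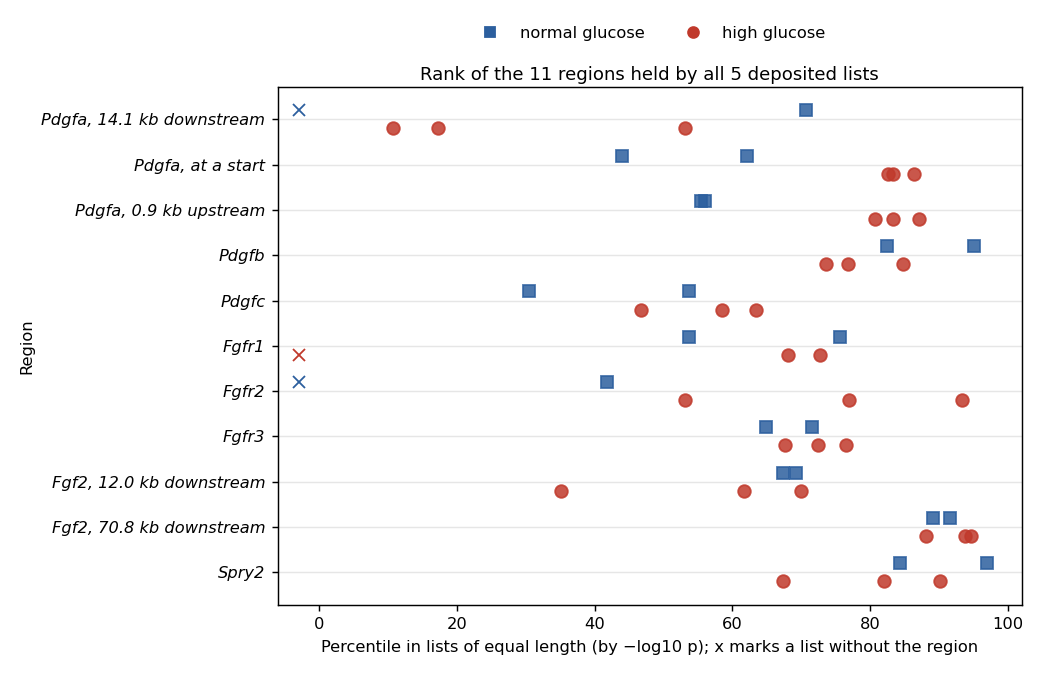
Percentile, by −log10 p in lists of 22149 peaks, of the 11 regions held by all 5 deposited lists (rows, with the distance to the nearest Pdgfa or Fgf2 start where a gene has several). Squares are the 2 normal-glucose and circles the 3 high-glucose libraries, and an x marks a list that lost the region. The groups are apart at the Pdgfa start and 910 bp upstream of it, at 44.0 to 62.2 against 80.6 to 87.1, and overlap at the other 6 regions with 5 values.

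Base composition at the starts was set beside their openness. RefSeq start windows of 300 bases, 250 before and 50 after a start, were at hand for 7 of the 10 genes, 9 windows in all. Of these, 2 lay under a region in all 5 lists, the Pdgfa start at 138994944 and the first Fgfr3 start, against 32.1% of 21263 windows of protein-coding genes. CpG dinucleotides, the sites of DNA methylation, stood at 0.940 and 0.726 of the number that the C and G content predicts in those 2 windows. Pdgfra, Fgfr2 and Pdgfc, without a peak over the window in any list, had 0.256, 0.282 and 0.353. Spry2 and the Pdgfa start at 138994281 also had none, with 0.951 and 0.766, so a CpG-rich window was not always covered. Spry2 and Fgfr2 did have a region in all 5 lists just outside these windows, 446 bp upstream and 430 bp downstream of their starts. The Fgf2 window, under the normal-glucose region, had 0.842. Over all windows the median was 0.824 under a region in all 5 lists and 0.257 where no list had a peak.

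**Figure D4:**
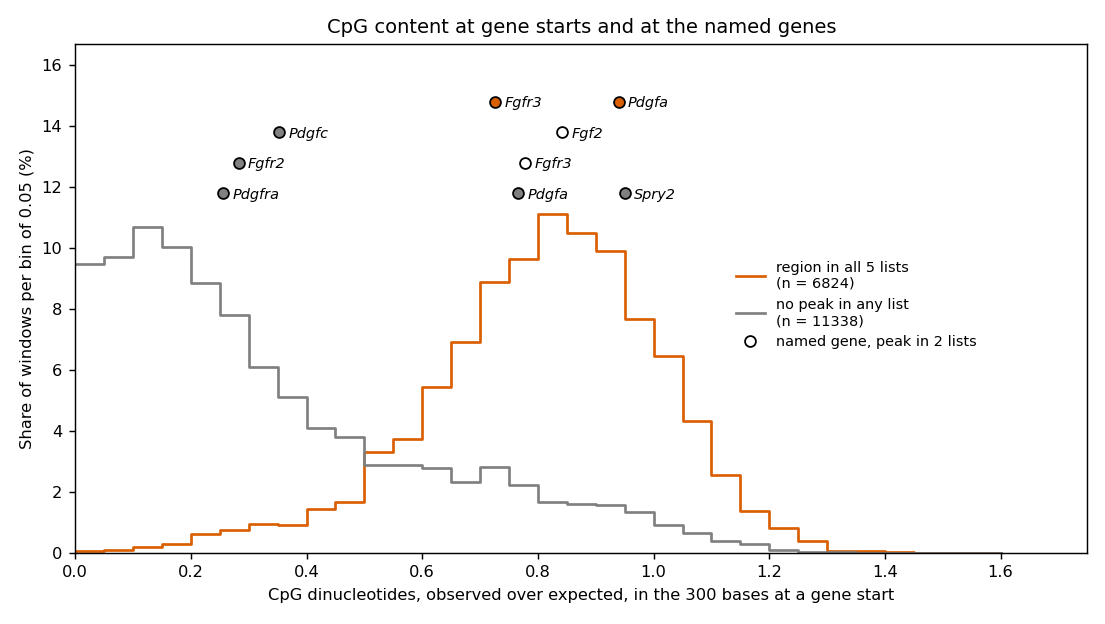
Observed over expected CpG in the 300 bases at gene starts. The lines give the share of windows in each bin of 0.05 for windows with a region in all 5 lists and for windows with no peak in any list, and the points above them are the 9 windows of the named genes, filled in the colour of their class. Pdgfra, Fgfr2 and Pdgfc lie in the CpG-poor range, at 0.256 to 0.353, and the 2 windows with a region in all 5 lists lie at 0.726 and 0.940.

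Short motifs were searched on both strands of the same 300-base windows, and a match describes letters only. GGGCGG, bound by SP and KLF factors, was in 5 of the 9 windows, both of Pdgfa, both of Fgfr3 and that of Fgf2, against 46.2% of all windows. CANNTG, the E-box, was in 4, against 69.0%, and CCAAT, the NFY motif, in 1, against 38.2%. GGAATG, the TEAD motif, was in the Pdgfc window only, against 13.6%. TGANTCA of AP-1, CCGGAAG of ETS factors and TGTGGT of RUNX factors were in none of the 9, against 6.99%, 11.6% and 15.0%.

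In the rest of the pathway, most adaptor and cascade genes had an open start and most ligand genes did not. Of 74 further PDGF and FGF pathway genes, 37 had a region in all 5 lists within 1 kb of a start, against 36.2% of all genes. Among the 10 genes themselves 5 did, namely Pdgfa, Fgfr2, Fgfr3, Spry2 and, at a gene end, Pdgfb. Of 22 further ligand genes 3 did, Fgf5, Fgf18 and the PDGF-D gene Pdgfd, with lowest percentiles of 50.5, 48.1 and 39.5 over the 5 lists, and 12 had no start peak in any list. Of 5 further receptor genes only Fgfrl1, a receptor without a kinase domain, did, at or above the 95.6 percentile, while Fgfr4 and the Klotho coreceptor genes Kl and Klb had no start peak in any list. Of 17 adaptor genes 14 did, with Pik3cb, a catalytic subunit of PI3 kinase, at or above the 98.2, Nck1 at or above the 97.3 and Pik3r1, a regulatory subunit of PI3 kinase, at or above the 92.1 percentile. In the Ras and MAP kinase cascade 9 of 10 did, with Map2k1, a kinase that acts below Raf, at or above the 95.2 and the Raf kinase gene Braf at or above the 66.8 percentile. Of 12 feedback inhibitors 6 did, led by Rasa1, Cbl and Dusp6 at or above the 99.1, 95.5 and 62.5, and of the other Sprouty genes Spry1 had a start peak in 4 lists, Spry4 in 5 and Spry3 in 0. Of 8 transcription targets 4 did, with Etv5 at or above the 98.9, Srf the 62.6 and Egr1 the 44.1 percentile. Pdgfb and 18 of the 74 genes, among them Spry3, Spry4 and Egr1, had no annotated start in the table used. Both of their gene ends were searched, so any region may lie at either end. A normal-glucose-only region lay within 10 kb of 7 of the 74 genes, against 7.53% of all genes, and a high-glucose-only region near none, against 0.420%.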

How the data were processed

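The deposited ATAC-seq peak lists, 1 per library, were used as they stand. Per the submitters' processing notes the build was mm10 and the tools included the peak caller MACS2 2.1.0, the aligner Bowtie 1.0.0 and Picard 1.90, with cutadapt 1.0, SAMtools 0.1.19, FastQC, DiffBind 1.12.3 and edgeR also listed, all without settings. How duplicates and the transposase offset were handled: not given in the sources used here. For each peak the authors deposited a fold enrichment (a ratio to the local background), a p-value and a q-value as −log10, the lowest −log10 q being 1.30, and a score, which was not used. The lists hold no read counts.

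Libraries with at least 1000 peaks entered. Peaks on chromosomes 1 to 19, X and Y that overlapped by at least 1 bp were merged into regions, and a region belonged to a gene if it overlapped the gene or 10 kb either side. Where a list had several peaks in a region, the strongest gave its values. Gene positions came from RefSeq on GRCm38.p6. Starts and strands came from its promoter table, and both gene ends were used for genes without an entry there. Those were 18 of the 74 pathway genes and Pdgfb, Pdgfrb and Fgfr1. Among the markers they were 6 of 11 mesenchyme (Pdgfrb included), 2 of 6 endothelial, 1 of 4 blood and 2 of 4 epicardial and mesothelial genes. Within 1 kb of a start lay 38.1% of peaks, and 4.40% after moving each peak by 50000 bp. The planned motif search was made in start windows and not in regions, since no genome sequence was used.

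The members, lists and alternatives were chosen with earlier results of these data known, and ranks at equal list length and CpG content were added after seeing the data. All 10 members are named, with the strongest region in all 5 lists, every region of 1 condition only, and up to 3 genes per pathway group by their weakest percentile; 1 gene that this rule names is not reported here. The calls were tested on simulated lists. Python 3.11.15, numpy 2.4.6, pandas 2.3.3 and matplotlib 3.10.9 were used.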

Additional observations from a re-analysis of the deposited data

How the results depend on the processing

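Regions in all entering lists at the 10 genes numbered 11, and 7 with a −log10 q of at least 5, 17 with 50 kb flanks, 5 where a peak had to cover 50% of the merged region, and 0 with all 6 libraries, normal-glucose replicate 2 having no peak there. Genes with such a region numbered 8. They numbered 6 at equal length, 6 with the stricter q, 6 in gene bodies alone and 7 with 2 kb flanks. Without high-glucose replicate 1 they numbered 9, under the 50% coverage 5 and with all 6 libraries 0. Normal-glucose-only regions numbered 2, and 0 at equal length, 1 with the stricter q, 1 in gene bodies alone and 0 with all 6 libraries. Leaving out each library gave 2 to 8 of them, with 8 when normal-glucose replicate 1 and 4 when normal-glucose replicate 3 was left out. High-glucose-only regions stayed at 0 under each of these settings. The difference in peaks, -7.67, became -11.7 and -3.67 when normal-glucose replicates 1 and 3 were left out in turn, -14.7 with 50 kb flanks, 1.33 at equal length and 1 with all 6 libraries. Fewer libraries or wider windows admit more regions by construction. Narrower windows or the 50% coverage cannot add regions in all lists. Normal-glucose replicate 2, with 0 peaks at the 10 genes, lowers the normal-glucose mean when it enters. The cause of the other changes was not tested. At equal length and with the stricter q, Fgfr1 and Fgfr2 had no region in all 5 lists. Under the 50% coverage Fgfr2, Fgfr3 and Spry2 had none, and Fgf2 and Pdgfa had 1 each.

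Regions ranked higher in every high-glucose list numbered 2, both of Pdgfa. They numbered 3 in lists as deposited, with the Fgfr2 region added, and 2 to 4 with a library left out. The 2 Pdgfa regions were among them each time. The count was 4 when normal-glucose replicate 3 or high-glucose replicate 1 was left out. Those ranked higher in every normal-glucose list numbered 0, 1 in lists as deposited, and 0 to 2 with a library left out, with 2 when normal-glucose replicate 3 or high-glucose replicate 1 was dropped. With fewer libraries the rule is easier to meet. The share over all regions was taken only with every library at equal length, so these other counts have none beside them.

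Replicate numbers are shared between the groups, but nothing says that they pair cultures. Deviations of same-numbered libraries from their group means correlated at -0.0402 and 0.0445 for numbers 1 and 3 over 11319 regions. For libraries of unlike numbers the correlations ranged from -0.0868 to 0.0868. With 2 normal-glucose libraries the deviations of 1 mirror those of the other, so these values cannot decide on pairing. With the replicate block, pairs 1 and 3, the difference in peaks was -9 and normal-glucose-only regions numbered 2.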
